A study of Mus musculus with 16 samples.

Results

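The granzymes are the serine proteases that cytotoxic lymphocytes store in granules, and perforin is the pore protein released with them. The 10 genes described here are Gzma, Gzmb, Gzmc, Gzmd, Gzme, Gzmf, Gzmg, Gzmk, Gzmm and Prf1, taken by symbol from the 32285 genes of the deposited matrices, and each of them was found in every matrix. Their transcripts were followed in CD8 T cells, CD4 T cells, regulatory T cells and natural killer (NK) cells of subcutaneous B16 melanomas, a transplantable mouse tumour, with tumour macrophages measured alongside as cells that should lack them.

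All hosts were C57BL/6J mice that received 1000000 cells of the Bro4.1 line of B16 under the skin. Tumour cells were either control cells or cells without B2m, the light chain of MHC class I, which presents peptides to CD8 T cells. The design text puts the loss of B2m in the implanted cells, whereas the sample labels write it as the mouse genotype, and the design text was followed. B2m in the sorted host cells therefore says nothing about the labels. Mice were given 100 µg of an antibody to CD40 (a receptor on antigen-presenting cells) or of rat IgG2a isotype control by peritoneal injection at days 6, 9 and 12 after implantation. Tumours were collected on day 14. Beads against CD45, the leukocyte surface marker, selected the immune cells, which were stained with 1 hashtag antibody per mouse and pooled by group for droplet sequencing of transcript 3' ends.

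The groups held 5 mice with control tumours under isotype antibody (pools of 3 and 2 mice), 2 with control tumours under anti-CD40 (1 pool on 2 technical lanes, which were added up), 5 with B2m-null tumours under isotype antibody (3 and 2) and 4 with B2m-null tumours under anti-CD40 (2 and 2). For control tumours under anti-CD40, the pool and the group cannot be told apart. The 8 lanes held 12894 to 17666 cell barcodes and 45985739 to 99264875 unique molecular identifiers (UMIs, 1 per captured transcript molecule), and pairs of lanes shared 41 to 92 barcodes, with 70 shared by the technical lanes. Hashtags assigned 34.0% to 89.7% of the barcodes of a lane to a mouse, and 73308 assigned cells passed the filters. Levels below are UMIs of a gene per 1000000 UMIs of all genes (CPM) in the summed cells of 1 mouse and gate. Since each molecule is counted once at its 3' end, levels do not depend on gene length, although capture may differ between genes. Mice are listed by pool, replicate 1 before replicate 2, and a mouse with fewer than 20 cells in a gate was left out of it.

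Gates were set by lineage transcripts and used none of the 10 genes. The CD8 T gate held 1540 assigned cells in control tumours under isotype, 6555 in control tumours under anti-CD40, 631 in B2m-null tumours under isotype and 3880 in B2m-null tumours under anti-CD40. In the same order the NK gate held 733, 275, 431 and 236 cells, the CD4 T gate 197, 296, 136 and 514, and the regulatory T gate 213, 30, 145 and 67. Markers that were not used for gating were checked: 6 NK genes (Klre1, Klrd1, Klra4, Klra7, Klra8 and Eomes) summed to group medians of 2542 to 3928 CPM in the NK gate, against 534 to 749 CPM in the CD8 T gate. Among the groups used, 5 regulatory T genes (Il2ra, Ikzf2, Ctla4, Tnfrsf18 and Tnfrsf4) summed to medians of 3691 to 4205 CPM in the regulatory T gate and 1411 to 2090 CPM in the CD4 T gate. Transcripts of dendritic cells moved with the treatment inside the gates. In the CD8 T gate, 7 dendritic genes summed to 206 to 350 CPM in control tumours under isotype and 326 to 1163 CPM in B2m-null tumours under isotype, against 31.9 to 41.4 and 20.7 to 49.1 CPM under anti-CD40. Their part in the results below was not tested. A summed level cannot tell fewer cells with a transcript from less transcript per cell, so shares of cells are given further on. Test results rest on the spread between mice, some of which share a lane.

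As background, a cytotoxic cell that recognises its target releases granules into the contact zone. Perforin opens the target's membrane, and granzyme B, which cuts after aspartate and activates caspases, and granzyme A, a tryptase, enter and kill the cell. Mice carry further granzymes of less well known substrate range: Gzmc, Gzmd, Gzme, Gzmf and Gzmg are rodent genes next to Gzmb that are typical of strongly stimulated killer cells, Gzmk is a tryptase of less differentiated effector and memory CD8 T cells, and Gzmm is best known from NK cells.

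Of the 10 genes, 6 lie close together on the minus strand of chromosome 14, in a stretch of 144.6 kb with Gzmn (mm10, as GRCm38): Gzmb at chr14:56258838-56262260, Gzmc at chr14:56231441-56234656, Gzmf at chr14:56205263-56211417, Gzmg at chr14:56156582-56159579, Gzmd at chr14:56129556-56132608 and Gzme at chr14:56117626-56120625. Gzma at chr13:113093825-113100981 and Gzmk at chr13:113171608-113225908 share a stretch of 132.1 kb on chromosome 13, and Gzmm at chr10:79689020-79695261 and Prf1 at chr10:61297833-61304680 lie apart on chromosome 10. The 6 promoters below, the 250 bases before the RefSeq start of each gene (GRCm38.p6, read 5′ to 3′ on the gene's strand), are shown because these genes gave different results in CD8 T cells. The RefSeq start can differ from the annotated end of the gene given above. Capitals mark the core letters bound by Runx factors, TGTGGT or, on the other strand, ACCACA.

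Gzmb, chr14:56262335-56262584, minus strand: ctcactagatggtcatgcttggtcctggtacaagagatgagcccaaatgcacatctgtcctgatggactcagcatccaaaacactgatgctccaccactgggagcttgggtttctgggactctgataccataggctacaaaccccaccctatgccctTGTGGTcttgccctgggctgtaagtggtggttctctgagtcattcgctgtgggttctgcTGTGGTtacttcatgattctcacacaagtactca
Gzmc, chr14:56234658-56234907, minus strand: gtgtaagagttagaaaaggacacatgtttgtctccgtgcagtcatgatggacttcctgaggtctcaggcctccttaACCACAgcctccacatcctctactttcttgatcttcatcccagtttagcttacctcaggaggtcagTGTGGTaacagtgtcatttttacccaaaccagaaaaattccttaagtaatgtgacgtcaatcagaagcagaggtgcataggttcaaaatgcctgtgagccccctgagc
Gzmd, chr14:56132594-56132843, minus strand: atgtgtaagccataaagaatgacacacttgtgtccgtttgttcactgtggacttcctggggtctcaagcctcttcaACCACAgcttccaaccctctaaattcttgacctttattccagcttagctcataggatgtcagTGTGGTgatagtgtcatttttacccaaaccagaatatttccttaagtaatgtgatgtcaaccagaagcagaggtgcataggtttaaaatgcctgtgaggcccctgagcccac
Gzmf, chr14:56211408-56211657, minus strand: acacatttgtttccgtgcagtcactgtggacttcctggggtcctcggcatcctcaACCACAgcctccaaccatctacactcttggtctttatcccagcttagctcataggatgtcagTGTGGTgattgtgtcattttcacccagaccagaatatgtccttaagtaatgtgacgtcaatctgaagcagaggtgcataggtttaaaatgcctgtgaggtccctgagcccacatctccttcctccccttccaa
Prf1, chr10:61297586-61297835, plus strand: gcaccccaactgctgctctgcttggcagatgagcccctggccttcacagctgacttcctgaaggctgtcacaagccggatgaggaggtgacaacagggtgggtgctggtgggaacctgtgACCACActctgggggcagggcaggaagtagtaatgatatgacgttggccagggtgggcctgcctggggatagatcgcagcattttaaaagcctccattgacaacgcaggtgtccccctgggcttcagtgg
Gzmk, chr13:113180966-113181215, minus strand: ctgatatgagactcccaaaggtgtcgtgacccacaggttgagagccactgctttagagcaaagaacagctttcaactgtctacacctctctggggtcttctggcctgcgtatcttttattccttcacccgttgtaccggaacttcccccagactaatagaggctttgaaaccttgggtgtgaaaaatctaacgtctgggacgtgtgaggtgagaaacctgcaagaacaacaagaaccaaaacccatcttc

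The Runx letters were found in the promoters of 9 of the 10 genes, all but Gzmk, and in 14.05% of 32851 mouse promoters of the same length. In Gzmc, Gzmd and Gzmf they occurred in both orientations, starting 174 and 108, 174 and 112, and 195 and 133 bases before the start, and Gzme and Gzmg had the same arrangement. Gzmb had a pair closer to its start, at 93 and 34 bases, and Prf1 a single match at 130 bases. Among 3 other motifs searched on both strands, the T-box letters TCACAC occurred in Gzmb and Gzmk (12.29% of all promoters), the AP-1 letters TGANTCA in Gzmb (6.749%) and the STAT letters TTCNNNGAA in Gzmm (7.02%), and no match overlapped one of another motif. These are letters in a window and were not shown to be bound. The promoters of Gzmc to Gzmg were 71.48% to 94.82% identical in pairs, whereas the other member pairs ranged from 44.62% to 52.79%. The last 300 transcript bases of Gzmd, Gzme, Gzmf, Gzmg and Gzmn, the part that 3' counting reads, were 81.79% to 90.03% identical, and 0% to 15.54% of their 50-base windows were shared exactly between pairs, so some counts of these close copies may be split or lost between them. Gzmb and Gzmc differed from them and from each other, with 46.23% to 54.14% identity.

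Where in the tumour these transcripts lay was compared first, within mice. NK cells carried the most: the 10 genes together reached 7549 CPM on average in control tumours under isotype, against 3410 CPM in CD8 T cells, 511 CPM in CD4 T cells and 472 CPM in regulatory T cells. Macrophages had 22.2 CPM. In the other groups the macrophage total was between 7.30 and 17.8 CPM, which gives the scale of stray transcripts. The repertoire differed as well. Gzma held the largest share in NK cells on average, with 3359, 3310, 3167, 3424 and 3947 CPM in the 5 control tumours under isotype, although Gzmc was higher in the last of them (4469 CPM). Gzmb led in CD8 T cells, with 1431, 1379, 1900, 1811 and 1435 CPM in the same mice. In NK cells of each mouse Gzma was far above its level in CD8 T cells, which was 51.5 to 354 CPM.

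**Figure D1:**
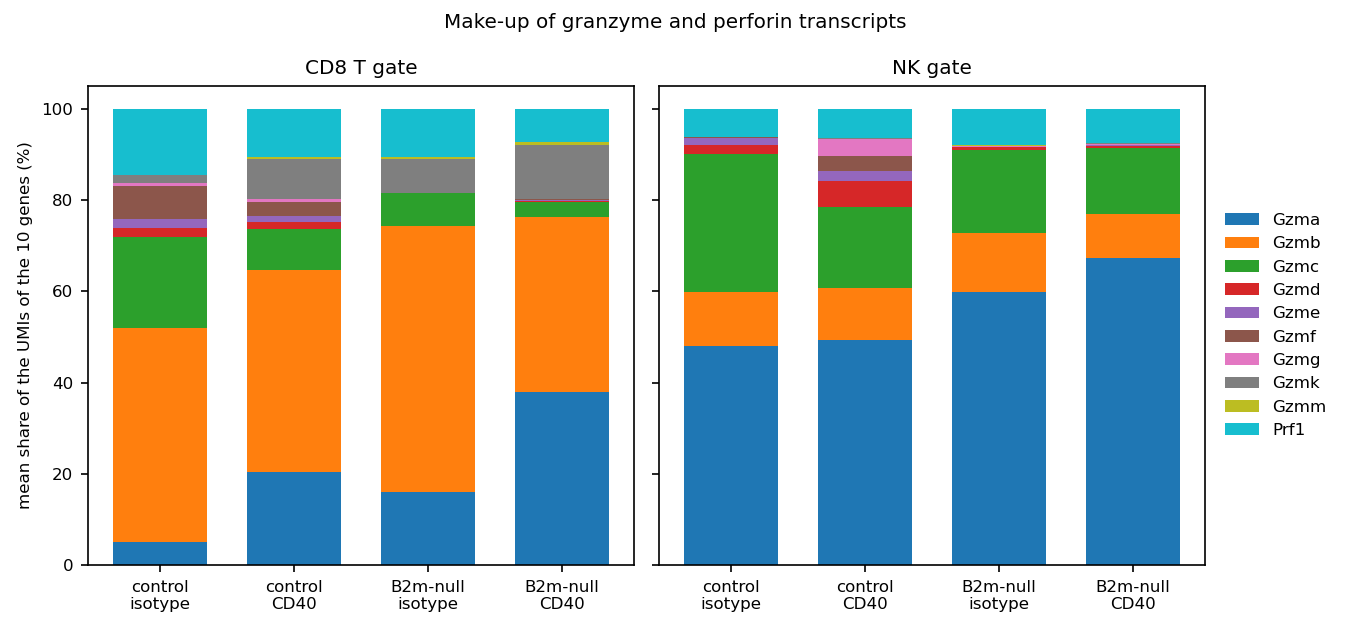
Share of the UMIs of the 10 genes (vertical axis, percent) that each gene held in the CD8 T gate (left) and the NK gate (right), as the mean over mice of each group. In CD8 T cells of control tumours under isotype Gzmb held 47.01%, Gzmc 19.76% and Prf1 14.5%; under anti-CD40 in B2m-null tumours Gzma reached 37.97%.

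Across all mice with the mouse as a block, Gzma was lower in CD8 T than in NK cells, with a log2 difference of -4.39 ± 0.29 (SE; adjusted p = 6.79e-16). Gzmc differed in the same direction, by -3.16 ± 0.39 (SE; adjusted p = 1.85e-08), as did Prf1, by -1.52 ± 0.29 (SE; adjusted p = 7.94e-05), and Gzmd, by -2.16 ± 0.53 (SE; adjusted p = 0.00182). Gzmk went the other way and was higher in CD8 T cells by 2.94 ± 0.31 (SE; adjusted p = 3.29e-10). For Gzmb the difference was -0.18 ± 0.22 (SE; adjusted p = 0.58), which did not pass. With counts capped at 10 UMIs per cell (-0.45, adjusted p = 0.0278) and with cells thinned to 1000 UMIs (-0.49, 0.0402) Gzmb was called lower in CD8 T than in NK cells. For CD8 T against NK cells 5 of 8 genes tested passed, against a background of 31.4% of all genes tested. Gzmk, 1 of the 5, had 55 UMIs in NK cells, where it was under the count filter. It entered this test through CD8 T cells, so its direction was fixed and its call is not read against that share. Gzmf (0.44, adjusted p = 0.722) was called in the stricter gate (3.06, 0.00113), and Gzme (-1.50, 0.0570) without either control isotype replicate (-2.21, 0.0165, and -2.14, 0.0168). Gzmg and Gzmm had too few counts for this fit.

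CD8 T cells exceeded both CD4 T cells (background 17.2%) and regulatory T cells (14.9%) in Gzma, Gzmb, Gzmc, Gzmk and Prf1. Gzmd, Gzme and Gzmf were called higher too, but with 1, 0 and 4 UMIs in CD4 T cells and none in regulatory T cells they entered the test through CD8 T and NK cells alone, so their direction was fixed. Gzmc and Gzmk had 5 and 8 UMIs in regulatory T cells and entered the test through the other gates. Against regulatory T cells their direction was fixed as well, and those calls are not read against the 14.9%. Gzmk had 68 UMIs in CD4 T cells and was under the count filter there too, so its call against them is not read against the 17.2%. The differences from CD4 T cells were 3.08 ± 0.33 (SE; adjusted p = 4.32e-09) for Gzmk, 2.36 ± 0.40 (SE; adjusted p = 2.64e-05) for Prf1 and 2.198 ± 0.27 (SE; adjusted p = 6.57e-08) for Gzmb. The smallest ones rested on single pools: for Gzma, 1.13 ± 0.36 (SE; adjusted p = 0.0238), adjusted p was 0.112 without B2m-null CD40 replicate 2, 0.0636 without B2m-null isotype replicate 2 and 0.0698 without control isotype replicate 1. For Gzmc, 1.95 ± 0.52 (SE; adjusted p = 0.00579), it was 0.168 and 0.0705 without control isotype replicates 1 and 2. NK cells exceeded CD4 T cells (20.1%) and regulatory T cells (26.4%) in 7 of 8 genes, and Gzmk was the exception in both. Gzmd, Gzme and Gzmf again had a fixed direction, as did Gzmc against regulatory T cells. Gzmk of regulatory T cells came from 8 UMIs in 1 mouse of those used. Without its pool, B2m-null CD40 replicate 2, none was left, and Gzmk was called lower than in NK cells (adjusted p = 0.00509) and than in CD4 T cells (0.0215). For CD8 T cells, calls of Gzmd, Gzme and Gzmf depended on single pools: against regulatory T cells their adjusted p was 0.126, 0.123 and 0.0940 without control isotype replicate 1 and 0.175, 0.186 and 0.0603 without replicate 2. Gzme was also lost without B2m-null isotype replicate 2 (0.0502), and against CD4 T cells without control isotype replicate 2 (0.0532). The call of Gzma against regulatory T cells was lost without control isotype replicate 1 (0.0871). Gzmf of NK cells lost its call against CD4 T cells without control CD40 mouse 2 (0.0553) and against regulatory T cells without mouse 1 (0.0514).

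Regulatory T cells were not devoid of the family. They held Gzmb at 388, 695, 339, 295 and 352 CPM in control tumours under isotype, next to 377, 427, 566, 331 and 198 CPM in CD4 T cells of the same mice. Perforin was far lower in them, at 16.6, 22.3, 5.74, 38.3 and 43.6 CPM. Gzmb thus exceeded Prf1 in regulatory T cells of each mouse. Gzmb differed between CD4 T and regulatory T cells by -0.97 ± 0.32 (SE; adjusted p = 0.0874), which did not pass. It was called, lower in CD4 T cells, with no filter on low counts (adjusted p = 9.03e-05), counts per pool (0.0471), counts capped (0.0182), the stricter gate (0.0255), at least 10 cells (0.0105), thinning (0.0206) and without control isotype replicate 1 (0.0369). Against regulatory T cells, Gzmb of CD8 T cells was higher by 1.23 ± 0.30 (SE; adjusted p = 0.00224), a call lost without control isotype replicate 1 (adjusted p = 0.0558) or 2 (0.0644). Between CD4 T and regulatory T cells 1 of 8 genes passed (3.77%, against which it is not read), Gzmc, on 5 UMIs in all regulatory T cells, which fixed its direction. Its adjusted p was 0.0397, and 0.0544 to 0.101 without B2m-null CD40 replicate 2, B2m-null isotype replicate 2, either control isotype replicate or either control CD40 mouse. Gzmd, Gzme, Gzmf and Gzmg had no UMI in regulatory T cells.

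Whether tumour cells without MHC class I change the killing genes of CD8 T cells was asked by comparing B2m-null with control tumours under isotype antibody. Perforin and 4 of the 6 chromosome 14 granzymes, Gzmc, Gzmd, Gzme and Gzmf, were lower in B2m-null tumours, and Gzmb, Gzmg, Gzmk, Gzma and Gzmm did not pass. Of the 10 genes, 5 were called, all lower, where 0.244% of all genes tested were called. Gzmd, Gzme and Gzmf had 0, 4 and 2 UMIs in the B2m-null tumours and entered the test through the other groups, so lower was the only direction they could take and their calls are not read against that share. Dropping the filter on low counts added 10 and 11 member calls under anti-CD40 in control and B2m-null tumours, 8 and 7 between tumours under isotype and anti-CD40 and 11 for the difference of the changes, over all gates, and is not repeated at each gene. Mice share pools, and these calls depended on how that was treated: with the pool as a random block in limma-voom only Prf1 kept its call (adjusted p of the other 4, 0.387 to 0.683), and with counts summed per pool only Gzmd and Gzme did (Gzmc 0.0657, Gzmf 0.227). The comparison shares its control tumours with that of anti-CD40 in control tumours.

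Prf1 was at 421, 301, 526.5, 752 and 502 CPM in CD8 T cells of control tumours and at 59.6, 95.4, 128 and 106 CPM in the 4 usable mice with B2m-null tumours, 1 mouse of replicate 1 having only 8 such cells. The groups did not overlap, with 301 CPM as the lowest control value and 128 CPM as the highest B2m-null value. The log2 difference was -2.26 ± 0.25 (SE; adjusted p = 0.00089). It passed without each pool in turn, and missed the threshold with counts summed per pool (-2.16, adjusted p = 0.0502).

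Gzmc fell from 498, 623, 766, 739 and 708 CPM to 0, 108, 92.4 and 103 CPM. Control tumours lay above B2m-null tumours throughout, by -2.98 ± 0.49 (SE; adjusted p = 0.016) on the log2 scale. Without B2m-null isotype replicate 1 or control isotype replicates 1 or 2 adjusted p was 0.112, 0.0998 and 0.0646. Gzmf had 229, 94.98, 505, 437 and 58.5 CPM in control tumours, a wide spread between mice, and 0, 0, 0.725 and 0 CPM in B2m-null tumours. In UMIs these were 2401 against 2, which per UMI of the gate was a ratio of 497.6 in CPM (95% counting interval 137.6 to 4111; adjusted p of the fit = 0.0104), and adjusted p was 0.0996 and 0.0804 without B2m-null isotype replicates 1 and 2. The interval counts UMIs as independent and sets no bound, since 5 cells held 33.7% of the control UMIs. With cells of no mouse and of mice left out included, Gzmf had 2475 UMIs in 1691 control cells and 16 in 793 B2m-null cells.

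Gzmd (28.0 to 152 CPM in control tumours) had no UMI in the 623 CD8 T cells of the 4 mice with B2m-null tumours. These mice had 37, 84, 428 and 74 such cells, so most came from 1 mouse. With 3 UMIs over the group as a floor, the control level was 88.8-fold the floor (adjusted p of the fit = 0.0256). This floor counts UMIs as independent, so it sets no minimum for transcripts that few cells hold. By cells, 3.38% of CD8 T cells held Gzmd in control tumours on average, and 3 of the 623 in B2m-null tumours would be 0.482%. Gzme (29.5 to 155 CPM) had 4 UMIs there, all in 1 mouse, and differed by -6.09 ± 1.11 (SE; adjusted p = 0.0245). Gzmg (2.39 to 104 CPM) had none, with a control level 32.7-fold the floor and 1.18% of control CD8 T cells holding it. Its control values were carried by 1 mouse and it did not pass (adjusted p = 0.175). The calls for Gzmd and Gzme were lost without B2m-null isotype replicate 1 (adjusted p = 0.114 and 0.151) or 2 (0.142 and 0.171) and without control isotype replicate 1 (0.0998 and 0.0566), and Gzme also without control isotype replicate 2 (0.0570). With each cell's count of a gene capped at 10 UMIs, a step added after the data had been seen, 2 of the 5 calls remained, Prf1 and Gzmf.

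Gzmb was at 322, 1104, 751 and 284 CPM in B2m-null tumours, all 4 below the lowest control tumour (1379 CPM). Its log2 difference of -1.37 ± 0.32 (SE; adjusted p = 0.0749) did not pass. DESeq2 called it (0.0106), as did the stricter gate (0.0158) and the fit without B2m-null CD40 replicate 1 (0.0461). Gzmk (0.83, adjusted p = 0.366), Gzma (-0.15, 0.969) and Gzmm (0.62, 0.826) overlapped between the tumours.

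**Figure D2:**
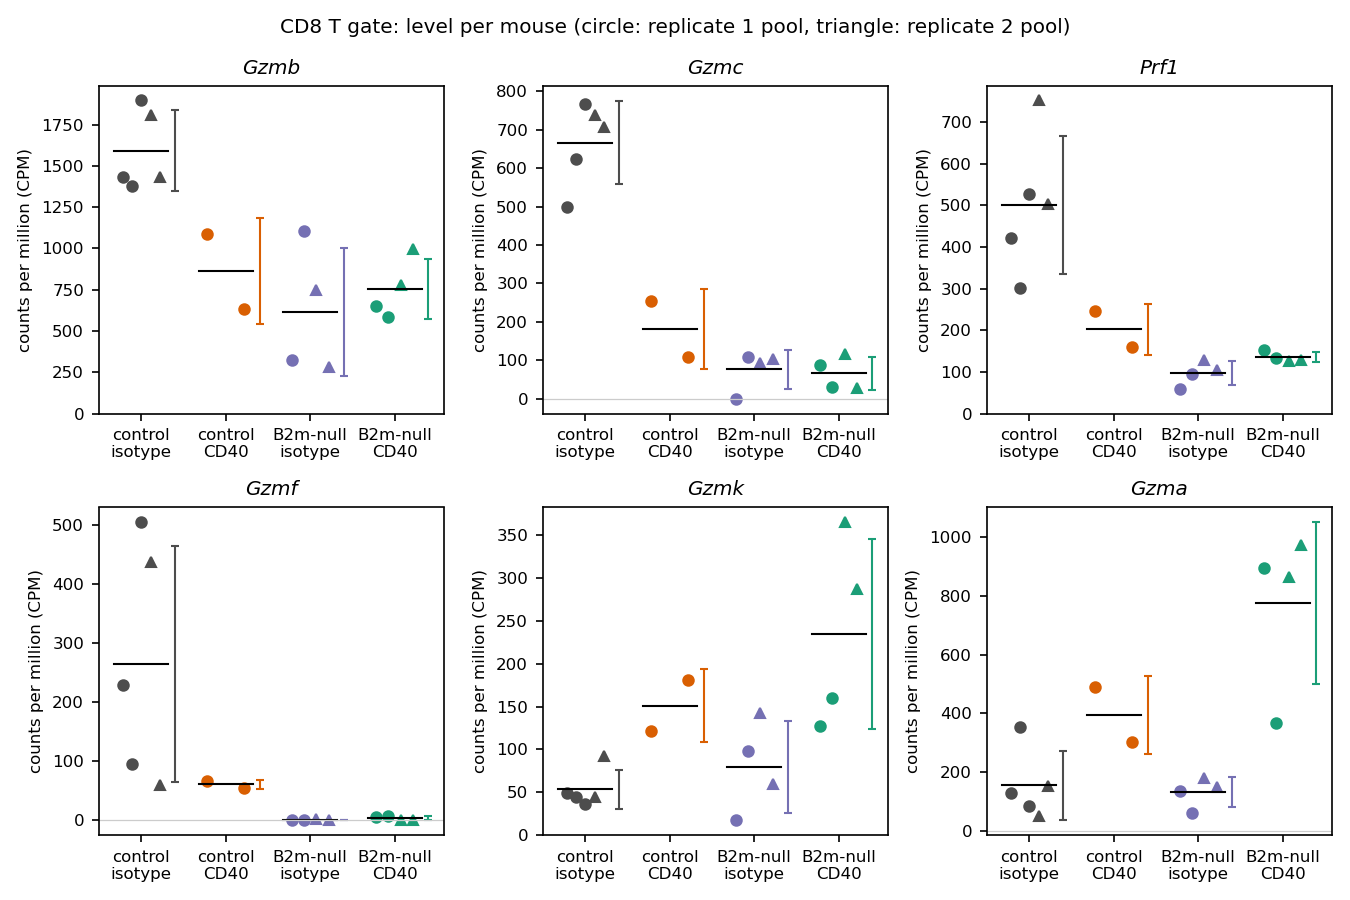
Level in CD8 T cells (CPM, linear axis) of 6 genes in each mouse of the 4 groups; circles are mice of replicate 1 pools and triangles of replicate 2 pools, the black line is the mean and the bar to its right the SD. Prf1, Gzmc and Gzmf were highest in control tumours under isotype, whereas Gzmk and Gzma were higher under anti-CD40 in both tumours.

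Under anti-CD40 the genes that CD8 T cells carried shifted, in control tumours in both directions. Gzma, Gzmk and Gzmm rose, while Prf1, Gzmc and Gzmf fell. Thus 6 of the 10 genes were called, where 26.5% of all genes tested were called in this gate. In B2m-null tumours Gzma, Gzmk and Gzmm rose and none of the 10 fell, so that 3 of the 10 were called against a background of 11.6%. Gzmm had 24 and 14 UMIs in all CD8 T cells of control and B2m-null tumours under isotype. It entered the test largely through the treated mice, so its 2 calls are not read against those shares. Both treated control tumours came from 1 pool. With the pool as a random block in limma-voom, Gzmm and Gzmf lost their call in control tumours (adjusted p = 0.0600 and 0.0988) and Gzmm and Gzmk in B2m-null tumours (0.194 and 0.168). With counts summed per pool none of these 9 calls remained, with adjusted p of 0.0523 to 0.236 in control and 0.0798 to 0.175 in B2m-null tumours.

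Gzma was at 129, 354, 86.2, 51.5 and 153 CPM in control tumours under isotype and at 489.5 and 302 CPM under anti-CD40. The lower treated mouse lay below the highest isotype mouse. The log2 change was 1.43 ± 0.50 (SE; adjusted p = 0.0418), and adjusted p was 0.126, 0.309 and 0.0915 without control isotype replicate 2, control CD40 mouse 1 or control CD40 mouse 2. In B2m-null tumours Gzma went from 137, 60.4, 179 and 149.5 CPM to 895, 368, 864 and 972 CPM, with no overlap. Its change of 2.65 ± 0.50 (SE; adjusted p = 0.00313) was lost without B2m-null isotype replicate 1 (2.33, adjusted p = 0.0557).

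Gzmk rose from 49.5, 43.9, 35.7, 44.2 and 92.8 to 121 and 181 CPM in control tumours, both treated mice lying above all isotype mice, by 1.56 ± 0.42 (SE; adjusted p = 0.0126) on the log2 scale. Adjusted p was 0.225 without control isotype replicate 1 and 0.172 without control CD40 mouse 2. In B2m-null tumours it went from 17.9, 98.6, 142 and 59.3 to 128, 159.5, 365 and 288 CPM, where the highest isotype mouse lay above the lowest treated mouse. That change of 1.51 ± 0.41 (SE; adjusted p = 0.0252) rested on the replicate 2 pool, without which it was 0.67 (adjusted p = 0.419), and was also lost without B2m-null isotype replicate 1 (0.159).

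Gzmm stayed scarce, at 0.566 to 7.18 CPM in control tumours under isotype and 12.2 and 9.29 CPM under anti-CD40, with a log2 change of 2.29 ± 0.62 (SE; adjusted p = 0.013). Its B2m-null values were 0 to 5.96 and 5.68 to 25.3 CPM, with a change of 2.505 ± 0.70 (SE; adjusted p = 0.0283). Both calls were fragile: in control tumours adjusted p was 0.0644, 0.0732 and 0.0607 without control isotype replicate 2, control CD40 mouse 1 or mouse 2. For B2m-null tumours these values were 0.426, 0.118 and 0.208 without B2m-null CD40 replicate 2, B2m-null isotype replicate 1 or 2.

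Prf1 fell under anti-CD40 in control tumours to 245 and 159 CPM, below all 5 isotype mice, by -1.25 ± 0.28 (SE; adjusted p = 0.00445) on the log2 scale; without control CD40 mouse 2 the change was -0.94 (adjusted p = 0.143). In B2m-null tumours it was at 152, 134, 127 and 128 CPM under anti-CD40, just overlapping the isotype mice, a change of 0.50 ± 0.26 (SE; adjusted p = 0.23) that did not pass. The difference between the 2 changes was tested and came to 1.76 ± 0.38 (SE; adjusted p = 0.0138). Prf1 was the only one of the 10 genes called for that difference in CD8 T cells, where 7.32% of all genes tested were. It was lost without B2m-null isotype replicate 1 (1.55, adjusted p = 0.0547), control isotype replicate 1 (2.10, 0.0587) or control CD40 mouse 2 (1.47, 0.140), with the pool as a random block (1.68, 0.0542) and with counts per pool (1.81, 0.398).

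Gzmc fell under anti-CD40 in control tumours to 254 and 108 CPM, both below every isotype mouse, by -1.82 ± 0.55 (SE; adjusted p = 0.0213). Adjusted p was 0.0991, 0.0563 and 0.276 without control isotype replicate 1, control isotype replicate 2 or control CD40 mouse 2. Gzmf fell to 65.8 and 54.7 CPM, where 1 isotype mouse lay between the treated ones, by -2.09 ± 0.70 (SE; adjusted p = 0.037). That call was lost without either B2m-null isotype replicate (adjusted p = 0.0535 and 0.0617), control isotype replicate 1 (0.121) or control CD40 mouse 1 or 2 (0.140 and 0.252). The changes of Gzmd (-1.27, adjusted p = 0.138), Gzme (-1.52, 0.0798) and Gzmg (-1.13, 0.463) did not pass. Gzmd and Gzme were called in the stricter gate (-1.007, adjusted p = 0.037, and -1.62, 0.00765) and with thinning (-2.27, 0.025, and -2.49, 0.0132), and Gzme also without B2m-null CD40 replicate 2 (0.0379).

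Gzmb, at 1090 and 634 CPM under anti-CD40 in control tumours, lay below all isotype mice, yet its change of -0.83 ± 0.39 (SE; adjusted p = 0.125) did not pass. In the stricter gate it was called (-0.95, adjusted p = 0.00504). Under anti-CD40 in B2m-null tumours it was at 654, 585, 778 and 998 CPM, within the range of the isotype mice, and changed by 0.45 ± 0.33 (SE; adjusted p = 0.412). The difference between these changes, 1.28 (adjusted p = 0.138), did not pass either. Gzmc under anti-CD40 in B2m-null tumours was at 88.3, 30.9, 116 and 27.4 CPM, a change of -0.23 ± 0.50 (SE; adjusted p = 0.861).

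**Figure D3:**
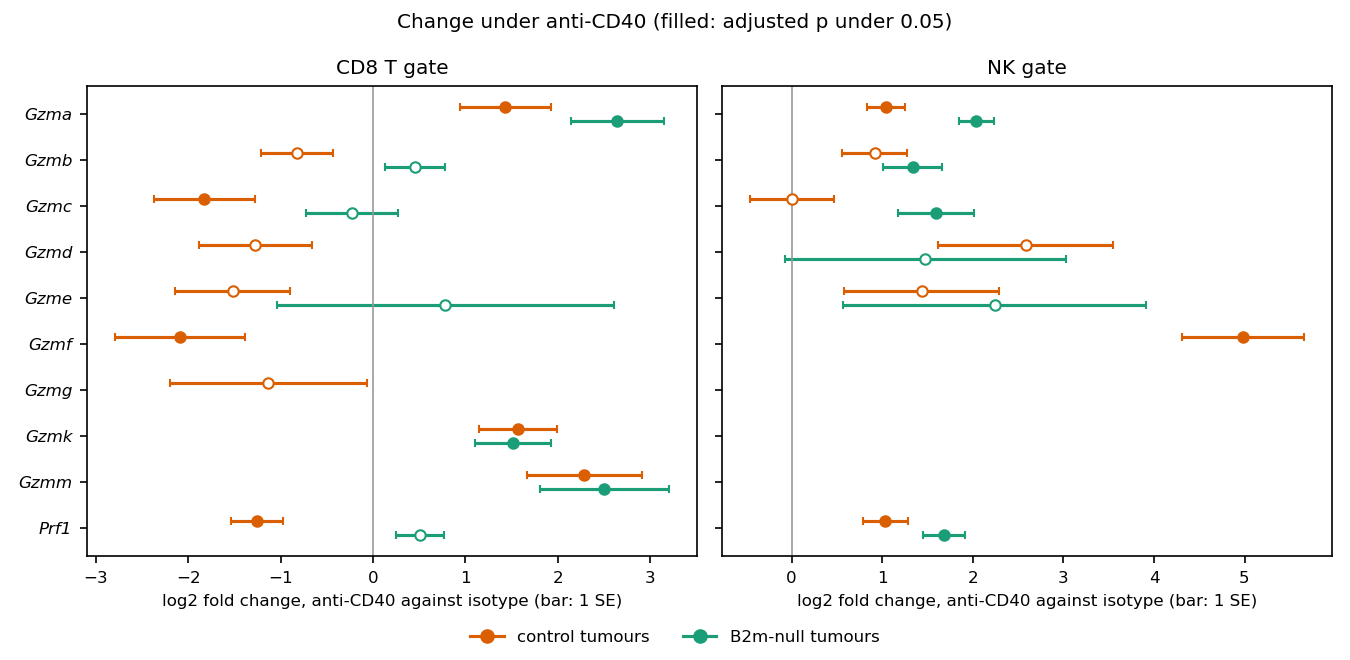
Log2 change under anti-CD40 against isotype (horizontal axis, bars 1 SE) in CD8 T cells (left) and NK cells (right), for control tumours (orange) and B2m-null tumours (green); filled points passed the test over all genes of the gate, and genes under the count filter or with 3 or fewer UMIs in a group are left out. In CD8 T cells of control tumours Gzma, Gzmk and Gzmm lie right of 0 and Prf1, Gzmc and Gzmf left of it, while in NK cells Gzma and Prf1 lie right of 0 in both tumours.

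Between the tumours under anti-CD40, 3 of the 10 genes were called in CD8 T cells, all lower in B2m-null tumours (background 3.97%). They had 22, 20 and 24 UMIs in the B2m-null tumours and entered the test through the control tumours, so their calls are not read against that share. These were Gzmd (-3.83 ± 0.82 (SE; adjusted p = 0.0256)), Gzme (-3.79 ± 0.85 (SE; adjusted p = 0.0255)) and Gzmf (-4.75 ± 0.91 (SE; adjusted p = 0.0155)). In control tumours the 2 treated mice had 65.8 and 54.7 CPM of Gzmf, while the 4 with B2m-null tumours had 4.91, 7.10, 0 and 0.302 CPM. All 3 calls were lost without B2m-null CD40 replicate 2 (adjusted p = 0.0839, 0.0691 and 0.0663), control isotype replicate 1 (0.0678, 0.0546 and 0.0522), control CD40 mouse 1 (0.179, 0.202 and 0.160) or mouse 2 (0.185, 0.0913 and 0.0913), and none remained with counts capped at 10 UMIs per cell. With the pool as a random block (0.0639 and 0.108) and with counts per pool (0.0523 and 0.609) Gzme and Gzmf lost their call. For Prf1 the difference was -0.50 ± 0.28 (SE; adjusted p = 0.356), for Gzmc -1.38 ± 0.51 (SE; adjusted p = 0.149), called with thinning (0.0199), and for Gzmb -0.10 ± 0.38 (SE; adjusted p = 0.955).

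The depth of CD8 T cells differed between groups, with medians of 4295, 1734, 3067 and 2363 UMIs per cell from control isotype to B2m-null CD40. So the share of cells with a transcript was also taken after thinning each cell to 1000 UMIs. Gzmb was then seen in 46.76% ± 3.99 (SD, n = 5), 36.3% ± 9.24 (n = 2), 26.77% ± 9.67 (n = 4) and 34.82% ± 3.52 (n = 4) of CD8 T cells, in that order of groups. Unthinned, the shares were 66.75%, 47.85%, 41.59% and 55.05%. The thinned share in macrophages, whose median cells held 4000, 3203.5, 4370 and 5000 UMIs, was 0.737%, 0.637%, 0.276% and 0.326%. For Prf1 the thinned shares were 26.3%, 13.2%, 7.42% and 11.4% (unthinned 54.3%, 24.3%, 24.9% and 27.8%). For Gzmk they were 5.52%, 14.7%, 9.32% and 22.3% (unthinned 19.5%, 28.3%, 21.9% and 44.3%). The highest macrophage value was 0.254% for Prf1 and 0.208% for Gzmk, thinned. In both tumours the Gzmk share was higher under anti-CD40, where cells were shallower. Thinning left out 69, 1560, 20 and 185 cells below 1000 UMIs.

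Transcripts of Gzmc, Gzmd, Gzme, Gzmf and Gzmg sat in fewer cells than those of Gzmb and Prf1. In CD8 T cells of control tumours under isotype, Gzmb was found in 1137 of 1691 cells (67.24%) and Prf1 in 928, whereas Gzmc was found in 353, Gzmf in 168, Gzme in 71, Gzmd in 56 and Gzmg in 19. A single cell held 757 of the 6124 UMIs of Gzmc, and 5 cells held 91.6% of those of Gzmg. By contrast, no cell held more than 8 UMIs of Gzmk. These counts include cells that hashtags assigned to no mouse. Counted in this way, B2m-null tumours under isotype had 793 CD8 T cells, 631 of them assigned to a mouse. Together the 793 cells held 1 UMI of Gzmd, 10 of Gzme, 16 of Gzmf and 0 of Gzmg.

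**Figure D4:**
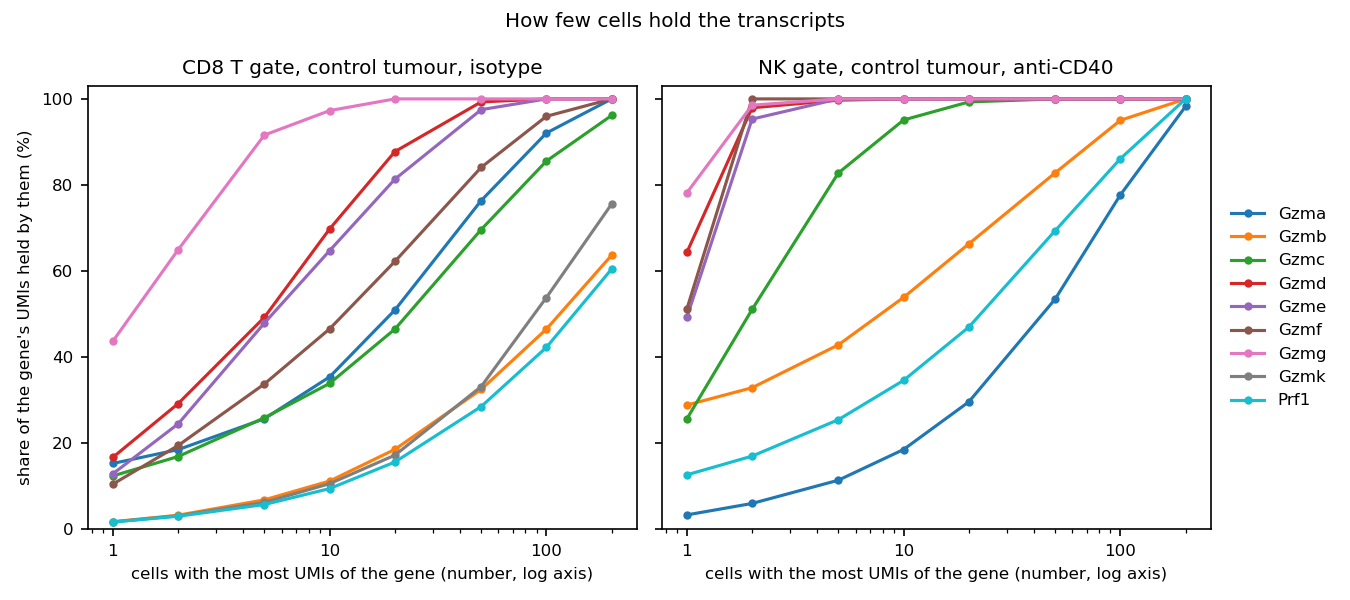
Share of a gene's UMIs (vertical axis, percent) held by the cells with the most UMIs of it (horizontal axis, number of cells, log scale), in CD8 T cells of control tumours under isotype (left) and NK cells of control tumours under anti-CD40 (right). Curves of Gzmb and Prf1 rise slowly in CD8 T cells, those of Gzmd to Gzmg steeply, and in NK cells 2 cells held all 217 UMIs of Gzmf. Gzmm is left out in both panels and Gzmk in the right one, for low counts.

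Gzmb and Prf1 transcripts met in the same CD8 T cells. After thinning, 18.44% of cells in control tumours under isotype held both, against 12.41% if the genes were independent within a mouse, and the observed share was higher in 5 of 5 mice. It was 6.82% against 4.92% under anti-CD40 (2 of 2 mice), 4.08% against 2.23% in B2m-null tumours under isotype (3 of 4) and 5.66% against 3.94% in B2m-null tumours under anti-CD40 (4 of 4). Cells that share a library share depth and stray transcripts, so this is a description.

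Dividing CD8 T cells were also counted. Cells with at least 2 UMIs of Mki67, Top2a, Stmn1 and Pclaf, genes of dividing cells, made up 55.36% of CD8 T cells in control tumours under isotype, 18.53% under anti-CD40, 41.75% in B2m-null tumours under isotype and 38.26% under anti-CD40, at the unequal depths given above. Gzmb was higher in cycling than in other CD8 T cells in 5 of 5, 2 of 2, 4 of 4 and 2 of 4 mice. Gzmk was lower in cycling cells of both control tumours under anti-CD40, at 112 against 171 CPM on average, and of all 4 B2m-null tumours under anti-CD40. Under isotype it was higher in cycling cells in all 4 B2m-null tumours (92.8 against 60.5 CPM on average) and in 3 of 5 control tumours. Prf1 was higher in cycling cells in 2 of 5, 0 of 2, 3 of 4 and 1 of 4 mice, and Gzmc in 3 of 5, 1 of 2, 2 of 4 and 2 of 4, in the order of groups above. The part of cycling in the group differences was not tested.

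NK cells do not need MHC class I on a target, and its loss can release them; whether their killing genes differed between the tumours under isotype was therefore compared. None of the 8 genes tested was called by edgeR's quasi-likelihood test (background 0.0419%, 2 of 4774 genes, with 244 at an unadjusted p under 0.05). DESeq2 called 9 of these genes, Gzmc among them (adjusted p = 0.0351), and Gzmc was also called without control isotype replicate 1 (-2.04, 0.00195). Gzma was at 2117, 2261, 3830 and 3179 CPM in B2m-null tumours, overlapping the control tumours. Gzmc had 2822, 408, 2660, 2083 and 4469 CPM in control and 659.9, 952, 797 and 892 CPM in B2m-null tumours, which overlapped through 1 control mouse and did not pass (-1.63, adjusted p = 0.364).

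Under anti-CD40, NK cells of both tumours raised granzyme A and perforin, with 4 of 8 genes called in control tumours (background 3.54%) and 4 of 8 in B2m-null tumours (3.35%), all higher. In control tumours 2 of the 4, Gzmf and Gzmg, had 26 and 0 UMIs in isotype mice and rested on the treated mice to enter the test, so their calls are not read against that share. Gzma was at 7609 and 5832 CPM in the 2 treated control tumours, above all isotype mice, and changed by 1.04 ± 0.21 (SE; adjusted p = 0.00704). Treated B2m-null tumours reached 11040, 10590, 8142 and 13750 CPM, again with no overlap, a change of 2.04 ± 0.19 (SE; adjusted p = 1.06e-05) that held in all alternatives run. The control-tumour call was lost without control isotype replicate 1 (0.94, adjusted p = 0.177) or control CD40 mouse 1 (0.83, 0.256) and with counts per pool (0.97, 0.175). The 2 changes differed by 1.00 (adjusted p = 0.115), which did not pass, and none of the 8 genes was called for that difference (background 0.901%; 650 genes at an unadjusted p under 0.05). DESeq2 called Gzma for it (adjusted p = 0.0281), as did the fit without B2m-null isotype replicate 2 (1.40, adjusted p = 0.011). Gzmc was called for it in the stricter gate (5.58, adjusted p = 0.00433), with thinning (2.36, 0.0431), with no filter on low counts (1.56, 5.91e-05) and without control isotype replicate 1 (1.98, 0.0333). Gzmg was called with no filter on low counts (-7.86, 0.0148).

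Prf1 was at 422, 406, 400.2, 368.5 and 645 CPM in NK cells of control tumours under isotype and 1077 and 663 CPM under anti-CD40, both above all isotype mice, with a change of 1.04 ± 0.25 (SE; adjusted p = 0.0263). Without control isotype replicate 1 it was 0.86 (adjusted p = 0.322), with counts per pool adjusted p was 0.230, and without control CD40 mouse 1 0.63 (0.509). In B2m-null tumours it went from 346, 278, 534 and 363 to 1549, 1225, 904 and 1087 CPM with no overlap, by 1.68 ± 0.23 (SE; adjusted p = 0.000688). This held without each pool, and was lost with counts per pool (1.56, adjusted p = 0.102) and in the stricter gate (1.15, 0.0600).

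Gzmb of NK cells changed by 0.92 ± 0.35 (SE; adjusted p = 0.167) in control tumours and did not pass. In B2m-null tumours it went from 821, 278, 934 and 455 to 2413, 1511, 1088 and 1148 CPM, no treated mouse lying below an isotype mouse, by 1.34 ± 0.33 (SE; adjusted p = 0.0301). The call was lost without B2m-null CD40 replicate 1 (0.92, adjusted p = 0.181) or B2m-null isotype replicate 1 (1.22, 0.136), with the pool as a random block (0.0559) and with counts per pool (0.191). Gzmc rose in B2m-null tumours to 2123, 1925, 2885 and 2147 CPM, above all isotype mice, by 1.60 ± 0.42 (SE; adjusted p = 0.0418). Adjusted p was 0.0507 to 0.185 without either B2m-null CD40 replicate, either B2m-null isotype replicate or control CD40 mouse 1, 0.152 with the pool as a random block, 0.154 with counts per pool and 0.111 with counts capped. In control tumours Gzmc was at 2332 and 2433 CPM, a change of 0.01 ± 0.47 (SE; adjusted p = 0.999), which in the stricter gate was -2.83 (adjusted p = 0.0335). Of the 298 NK cells of control tumours under anti-CD40, 5 held 82.8% of the 1144 UMIs of Gzmc. It was found in 9.40% of these cells, against 12.4% under isotype.

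**Figure D5:**
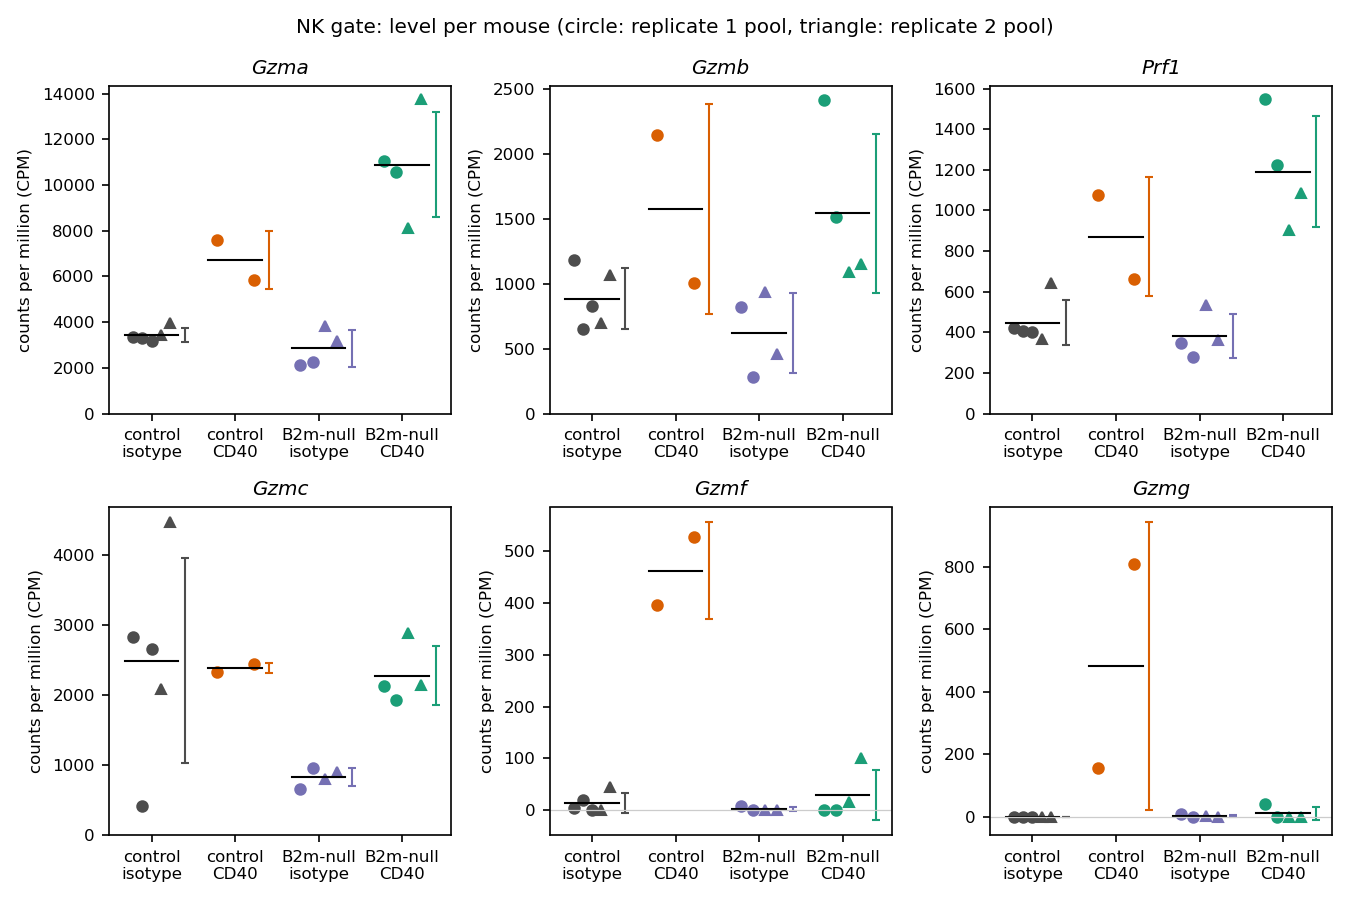
Level in NK cells (CPM, linear axis) of 6 genes in each mouse of the 4 groups; circles are mice of replicate 1 pools and triangles of replicate 2 pools, the black line is the mean and the bar to its right the SD. Gzma and Prf1 were higher under anti-CD40 in both tumours, and Gzmf and Gzmg stood out in the 2 mice with control tumours under anti-CD40, where they came from 2 and 4 cells.

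The other 2 calls in control tumours came from very few cells. Gzmf had 3.03, 19.8, 0, 0 and 43.7 CPM under isotype and 396 and 528 CPM under anti-CD40, a change of 4.98 ± 0.68 (SE; adjusted p = 0.000286), but its 217 UMIs lay in 2 of 298 cells. Gzmg had no UMI in the 733 NK cells of isotype mice and 206 UMIs in 4 cells under anti-CD40, 161 of them in 1 cell. Its level was 244-fold a floor of 3 UMIs over the isotype group (adjusted p of the fit = 5.18e-05), which is no minimum with so few cells. By cells, 1.51% of treated NK cells held it on average, and 3 of the 733 isotype cells would be 0.409%. On the technical lanes Gzmg had 3 and 203 UMIs. With counts capped at 10 UMIs per cell the change of Gzmf was 2.07 (adjusted p = 0.373), and Gzmg no longer passed the count filter. Gzmd (218 of its 339 UMIs in 1 cell) changed by 2.58 ± 0.97 (SE; adjusted p = 0.151). With the pool as a random block in limma-voom it was called (4.97, adjusted p = 0.00603), as was Gzme (3.81, 0.017).

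The same genes were called between tumours under anti-CD40 in NK cells, 2 of 8 (background 0.482%), and again entered the test through the treated control tumours, so lower was the direction open to them: Gzmf (-4.00 ± 0.76 (SE; adjusted p = 0.0161)) and Gzmg (-5.59 ± 0.81 (SE; adjusted p = 0.00884)) were lower in B2m-null tumours. Gzmf was lost without B2m-null CD40 replicate 1 (adjusted p = 0.0906), control CD40 mouse 1 (0.292) or mouse 2 (0.183), and Gzmg without B2m-null CD40 replicate 2 (0.0555) or control CD40 mouse 2 (0.403) and with the pool as a random block (0.214). With counts per pool both were lost (0.167). Gzma was called higher in B2m-null tumours by DESeq2 (0.70, adjusted p = 0.0402) and with thinning (0.89, 0.0466), and Gzme lower without control isotype replicate 1 (-3.15, 0.014). Fibroblast genes (Col1a1, Col1a2 and Dcn) summed to 1380 and 2692 CPM in the NK gate of these 2 mice, against 0 to 878 CPM in control tumours under isotype, and their part was not tested. In the NK gate the CD3 and CD8 genes are at 0 by the gate's rule, and dendritic genes summed to 87.0 to 679 CPM under isotype and 24.96 to 29.9 CPM under anti-CD40 in control tumours.

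The thinned share of NK cells with Gzma was 64.9%, 76.0%, 66.0% and 83.1% from control isotype to B2m-null CD40, and 0.209% to 0.498% in macrophages. For Prf1 it was 35.2%, 47.7%, 33.1% and 61.9%. Unthinned, the Gzma shares were 77.4%, 79.4%, 74.2% and 84.8% and those of Prf1 47.7%, 54.5%, 40.8% and 81.1%. Median NK cells held 1183, 1232.5, 1616 and 2101 UMIs, in the same order. Thinning left out NK cells below 1000 UMIs, so the thinned shares describe the deeper cells, in 5, 2, 3 and 4 mice. The mean per cell was 1721 and 1791 UMIs in the 2 control tumours under anti-CD40, below the 2163 to 2676.5 UMIs of the 5 under isotype. Gzmk and Gzmm were at 0 to 127 and 0 to 19.97 CPM in NK cells, under the count filter and so not tested. Unthinned, Gzmk was seen in 8 of 893, 9 of 298, 4 of 551 and 28 of 341 NK cells, in that order of groups.

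In CD4 T cells 4 of the 10 genes had enough counts (Gzma, Gzmb, Gzmc and Prf1), in 5, 2, 2 and 3 mice. Perforin and Gzmc were the ones called. Prf1 was at 0, 35.2, 47.1, 19.4 and 6.82 CPM in control tumours under isotype and 49.6 and 115 CPM under anti-CD40, which did not pass (2.12, adjusted p = 0.0776; 0.0340 without B2m-null CD40 replicate 1). Its B2m-null levels went from 0 and 9.44 to 25.5, 133 and 55.2 CPM with no overlap, by 3.38 ± 0.93 (SE; adjusted p = 0.0448). That call was lost without B2m-null CD40 replicate 2 (1.70, adjusted p = 0.599), either B2m-null isotype replicate (0.195 and 0.260), control isotype replicate 2 (0.0731) or control CD40 mouse 2 (0.0520), and with the pool as a random block (0.312).

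Gzmc had 28.6, 5.02, 47.1, 0 and 0 CPM in CD4 T cells of control tumours under isotype and 78.5 and 232 CPM under anti-CD40, a change of 3.58 ± 0.65 (SE; adjusted p = 0.00417). But 94 of the 124 treated UMIs lay in 1 cell; without control CD40 mouse 2 adjusted p was 0.197, with the pool as a random block 0.141 and with counts per pool 0.952, and with counts capped the change was 1.76 (0.210). In B2m-null tumours Gzmc had 3 UMIs under isotype and 107 under anti-CD40 in the mice used, a ratio of 12.6 in CPM (95% counting interval 4.19 to 61.9; adjusted p of the fit = 0.0338). Adjusted p was 0.176, 0.150 and 0.256 without B2m-null CD40 replicate 2, B2m-null isotype replicate 1 or 2, 0.286 with the pool as a random block and 0.0851 with counts capped. Over all CD4 T cells, those of no mouse or of mice with under 20 cells included, the isotype group held 48 UMIs, 44 of them in 1 cell, and the treated group 108. With counts per pool the change was -0.14 (0.981). So 1 of 4 genes was called in control tumours (background 5.16%) and 2 of 4 in B2m-null tumours (4.93%). With 10 and 3 UMIs of Gzmc and, in B2m-null tumours, 4 of Prf1 in the isotype mice, these genes entered the test largely through the treated groups, so the counts are not read against those shares. Gzma, at 0, 231, 35.4, 12.97 and 150.1 CPM under isotype and 285 and 111 CPM under anti-CD40 in control tumours, overlapped and did not pass. In B2m-null tumours Gzma went from 0 and 54.3 to 734, 457 and 22.1 CPM, which overlapped and did not pass (3.29 ± 1.23 (SE; adjusted p = 0.142)), although it was called with counts per pool (2.33, adjusted p = 0.0434) and with no filter on low counts (3.31, 1.68e-14). Over all CD4 T cells of these groups, 1 cell held 217 of the 539 Gzma UMIs under anti-CD40 and 39 of the 78 under isotype. Gzma was found in 5.40% of cells under anti-CD40 and 5.14% under isotype.

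Gzmb of CD4 T cells was at 145 and 195 CPM under anti-CD40 in control tumours, both below the isotype mice (-1.10, adjusted p = 0.0811), and at 55.2 and 96.8 CPM under isotype and 117, 259 and 192 CPM under anti-CD40 in B2m-null tumours (1.30, 0.0935); neither change passed. The first was called with thinning (adjusted p = 0.0334) and without either B2m-null CD40 replicate (0.0343 and 0.0474) or control isotype replicate 2 (0.0440), and the second with at least 10 cells (0.0219) and without B2m-null CD40 replicate 1 (0.0232). Fibroblast genes summed to 656 and 1599 CPM in this gate under anti-CD40 in control tumours and to 0 to 3216 CPM under isotype, and their part was not tested. Between tumours none of the 4 genes was called, under isotype (edgeR: 0 of 4786 genes called, 255 at an unadjusted p under 0.05; DESeq2: 6, with Gzmb at -2.19 and adjusted p = 0.000865) or under anti-CD40 (0.334% called), nor was one for the difference of the changes (0.125%), where DESeq2 gave Gzmb an adjusted p of 0.00476. Gzmb was also called under isotype with at least 10 cells (0.0192) and without either B2m-null CD40 replicate (0.0399 and 0.0491), and for the difference with at least 10 cells (0.0486) and without B2m-null CD40 replicate 1 (0.0225).

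Regulatory T cells could be compared in 5 mice with control and 2 with B2m-null tumours under isotype and in 1 with a B2m-null tumour under anti-CD40. That arm is 1 mouse with 33 such cells, with no replicate to check it, and every p-value for it rests on the assumption that it varies like the other groups. Control tumours under anti-CD40 had 13 and 17 such cells and were left out. Both usable mice with B2m-null tumours under isotype came from the replicate 2 pool, so for them the pool and the group cannot be told apart. Gzmb was at 356 and 242 CPM in B2m-null tumours under isotype and 1002 CPM in the treated mouse, a difference of 1.78 ± 0.37 (SE; adjusted p = 0.0149). Gzma was at 59.3 and 0 and 635 CPM, a difference of 4.17 ± 0.86 (SE; adjusted p = 0.014), and Prf1 at 9.12 and 21.2 and 35.8 CPM, which did not pass (adjusted p = 0.599). Under that assumption 2 of the 3 genes with enough counts passed (background 1.82%), which describes this mouse. Over all such cells of the group 6 cells held the 136 UMIs of Gzma, 63 of them in 1 cell, and with counts capped its adjusted p was 0.0948; with counts per pool that of Gzmb was 0.200. Fibroblast genes summed to 5091 CPM in this treated mouse, to 0 to 628 CPM in control and to 0 to 6.08 CPM in B2m-null tumours under isotype, and their part was not tested. Between tumours under isotype no gene was called by edgeR (0 of 5783, 383 at an unadjusted p under 0.05), and 6 were called by DESeq2. In the stricter gate, where the B2m-null arm was 1 mouse, Gzma was called (adjusted p = 5.13e-05), on a lone sample with no Gzma.

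The other genes of the pathway were followed through 5 lists of 40 genes, 38 of which are in the files: granzyme processing, granule cargo and exocytosis, granzyme inhibitors, regulators of the effector programme, and other effector molecules. In CD8 T cells 37 had enough counts; 7 rose and 4 fell under anti-CD40 in control tumours, a share near the 26.5% of all genes tested, and 5 rose and 2 fell in B2m-null tumours (11.6% of all genes). In CD4 T cells the counts were 7 and 1 (5.16% of all genes), and 6 and 2 (4.93%), of 34. Some of these genes were scarce under isotype: Fasl was at 11.1 and 3.54 CPM in control and B2m-null tumours, and Il12rb2 at 5.90 CPM in the latter. They entered the test largely through the treated groups, so the CD4 T counts are not read against those shares. In NK cells none of 33 was called in control tumours (3.54%), and 2 rose and 1 fell in B2m-null tumours (3.35%). Between the tumours 1 list gene was called, in CD8 T cells under isotype (0.244%). For the difference of the changes 2 of 37 were called lower in CD8 T cells (7.32% of all genes), and none in CD4 T or NK cells.

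Within the processing list, a rise and a fall were called in both T cell gates. Ctsw (cathepsin W, a protease of killer lymphocytes) rose in CD8 T cells by 1.17 ± 0.26 (SE; adjusted p = 0.0041) in control tumours, from 135 to 294 CPM, and by 1.22 ± 0.25 (SE; adjusted p = 0.00582) in B2m-null tumours. Adjusted p was 0.0933 without control isotype replicate 1 in the former and 0.13 without B2m-null CD40 replicate 2 and 0.066 without B2m-null isotype replicate 1 in the latter. Ctsh (cathepsin H, which can trim progranzyme B) fell by -1.12 ± 0.27 (SE; adjusted p = 0.00673) and -1.45 ± 0.25 (SE; adjusted p = 0.00204). These calls had adjusted p of 0.078 without control isotype replicate 1, 0.0683 without control CD40 mouse 1 and 0.0642 without control CD40 mouse 2, and of 0.0547 without B2m-null CD40 replicate 2. Ctsh fell where dendritic genes fell in the CD8 T gate, as given above. The part of dendritic transcripts in the changes of Ctsh was not tested in either T cell gate. The 4 processing genes had a median log2 change of -0.34 and 0.33 in CD8 T cells, next to 0.02 and 0.03 over all genes tested.

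Nkg7, a granule membrane protein needed for release, was the list gene that rose in most gates. In B2m-null tumours it rose in CD8 T cells by 1.44 ± 0.19 (SE; adjusted p = 0.00044), from 797 to 1951 CPM, in CD4 T cells by 2.79 ± 0.36 (SE; adjusted p = 0.000518) and in NK cells by 1.478 ± 0.20 (SE; adjusted p = 0.000639), and these calls held without each pool. In control tumours it rose in CD4 T cells by 2.12 ± 0.28 (SE; adjusted p = 0.000265), from 249.8 to 1069 CPM. Among CD8 T cells of control tumours Unc13d, a priming factor for release, changed by 0.58 ± 0.19 (SE; adjusted p = 0.0335) and Ap3b1, an adaptor of granule sorting, by -0.69 ± 0.14 (SE; adjusted p = 0.00252). Adjusted p of Unc13d was 0.47 without control isotype replicate 1, 0.138 without control CD40 mouse 1 and 0.198 without control CD40 mouse 2, and of Ap3b1 0.111 without control CD40 mouse 2. Vamp8, a fusion protein, rose in CD4 T cells of control tumours by 0.95 ± 0.23 (SE; adjusted p = 0.0199), with 0.151 without control isotype replicate 1, 0.0882 without control CD40 mouse 1 and 0.256 without control CD40 mouse 2. Lyst, which controls granule size, fell in NK cells of B2m-null tumours by -2.41 ± 0.37 (SE; adjusted p = 0.00187). Lamp1 differed between the 2 changes in CD8 T cells by -0.78 ± 0.23 (SE; adjusted p = 0.0498), a call kept without B2m-null isotype replicate 2 and lost without each other pool or mouse in turn, with adjusted p from 0.0806 to 0.270.

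Among the inhibitors, Serpinb9b, a relative of the granzyme B inhibitor Serpinb9, was called lower in the same 2 comparisons of CD8 T cells as Prf1, Gzmc and Gzmf. It was at 65.9 CPM in control tumours under isotype and at 3.73 CPM in B2m-null tumours (-3.97 ± 0.65 (SE; adjusted p = 0.016); adjusted p 0.114 without B2m-null isotype replicate 1, 0.0873 without B2m-null isotype replicate 2 and 0.057 without control isotype replicate 2), and at 20.2 CPM in control tumours under anti-CD40 (-1.67 ± 0.47 (SE; adjusted p = 0.0163); 0.0616 without control isotype replicate 2, 0.0682 without control CD40 mouse 1 and 0.193 without control CD40 mouse 2). Serpina3g rose among CD8 T cells of B2m-null tumours by 0.84 ± 0.21 (SE; adjusted p = 0.0181), with adjusted p of 0.129 without B2m-null CD40 replicate 2, 0.073 without B2m-null isotype replicate 1 and 0.145 without B2m-null isotype replicate 2. Serpinb6a rose in NK cells of the same tumours by 1.80 ± 0.31 (SE; adjusted p = 0.005). In regulatory T cells of the 1 treated B2m-null mouse Serpinb6a was at 233 CPM, against 38.7 CPM under isotype. Unc13d was at 0 against 61.4 CPM there. The 6 inhibitors had a median log2 change of -0.59 and 0.34 in CD8 T cells under anti-CD40 in control and B2m-null tumours.

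Of the other effector molecules, Ifng (interferon gamma) moved most in CD4 T cells, from 31.8 to 670 CPM in control tumours (4.36 ± 0.26 (SE; adjusted p = 1.18e-08)) and from 31.5 to 408 CPM in B2m-null tumours (3.68 ± 0.34 (SE; adjusted p = 1.64e-05)). Both calls held without each pool that was left out, and the 1 pool of treated control tumours could not be left out. The 4 tested genes of the list had medians of 1.73 and 1.98 in CD4 T cells, next to -0.02 and 0.02 over all genes. Fasl, a death ligand, rose in CD8 T cells by 1.31 ± 0.17 (SE; adjusted p = 0.000104) and 1.02 ± 0.18 (SE; adjusted p = 0.00218), the second with 0.0732 without B2m-null isotype replicate 2. In CD4 T cells it rose by 2.56 ± 0.61 (SE; adjusted p = 0.02) (adjusted p 0.19 without control isotype replicate 1, 0.0505 without control CD40 mouse 1 and 0.281 without control CD40 mouse 2) and 3.48 ± 0.82 (SE; adjusted p = 0.0189) (0.51 without B2m-null CD40 replicate 2, 0.0872 without B2m-null isotype replicate 1 and 0.182 without B2m-null isotype replicate 2). Ctsw of CD4 T cells rose by 1.89 ± 0.40 (SE; adjusted p = 0.00972) (0.1 without control isotype replicate 1, 0.0673 without control isotype replicate 2, 0.0684 without control CD40 mouse 1 and 0.0931 without control CD40 mouse 2) and 2.28 ± 0.45 (SE; adjusted p = 0.00734) (0.406 without B2m-null CD40 replicate 2 and 0.0574 without B2m-null isotype replicate 1), and Ctsh fell by -2.28 ± 0.33 (SE; adjusted p = 0.000472) and -2.27 ± 0.34 (SE; adjusted p = 0.000922) (0.101 without B2m-null CD40 replicate 2).

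Of the 12 regulators tested in CD8 T cells, 3 rose and 1 fell in control tumours and 1 rose and 1 fell in B2m-null tumours. In CD4 T cells 2 of 10 rose in control tumours, and 2 rose and 1 fell in B2m-null tumours. The shares over all genes are those given for the lists above, and the CD4 T counts are not read against them. In CD8 T cells of control tumours Runx3, the Runx factor of killer T cells, rose from 168 to 307 CPM by 0.93 ± 0.16 (SE; adjusted p = 0.000781), and Tcf7, a factor of less differentiated T cells, by 1.39 ± 0.46 (SE; adjusted p = 0.0335) (0.225 without control isotype replicate 1, 0.08 without control isotype replicate 2, 0.128 without control CD40 mouse 1 and 0.156 without control CD40 mouse 2). The call of Runx3 held without each pool that was left out. The 1 pool of treated control tumours could not be left out. Zeb2, a factor of terminal effectors, fell in CD8 T cells by -0.59 ± 0.19 (SE; adjusted p = 0.0288) (0.244 without control isotype replicate 1, 0.21 without control CD40 mouse 1 and 0.112 without control CD40 mouse 2) and -0.87 ± 0.18 (SE; adjusted p = 0.00532) (0.113 without B2m-null CD40 replicate 2 and 0.0504 without B2m-null isotype replicate 1). Among CD4 T cells it fell in B2m-null tumours by -2.001 ± 0.43 (SE; adjusted p = 0.0107) (0.141 without B2m-null CD40 replicate 2 and 0.15 without B2m-null isotype replicate 1). Zeb2 is also expressed by dendritic and other myeloid cells. Il12rb2, an interleukin 12 receptor chain, rose among CD8 T cells of B2m-null tumours by 1.72 ± 0.48 (SE; adjusted p = 0.0294) (0.0653 without B2m-null CD40 replicate 1, 0.152 without B2m-null isotype replicate 1, 0.072 without B2m-null isotype replicate 2 and 0.0588 without control isotype replicate 1). In CD4 T cells it rose by 1.31 ± 0.36 (SE; adjusted p = 0.0395) (0.0712 without B2m-null CD40 replicate 2, 0.343 without control isotype replicate 1, 0.0607 without control isotype replicate 2, 0.118 without control CD40 mouse 1 and 0.381 without control CD40 mouse 2) and 2.59 ± 0.53 (SE; adjusted p = 0.00847) (0.141 without B2m-null CD40 replicate 2 and 0.0639 without B2m-null isotype replicate 2). The median of the 12 regulators in CD8 T cells was 0.10 and -0.07.

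Genes whose levels ran most like those of 4 members were taken over the 50 mouse and gate sums, among 6289 genes of at least 20 CPM on average, as Pearson correlations of log2(CPM + 10), with the 10 members ranked apart from the other genes. The sums of 1 mouse share a tumour and a lane, and gates differ from each other, so these are descriptions. Among other genes, Prf1 ran most like Klre1 (r = 0.88), a receptor gene of NK cells, followed by Ugcg, Chsy1, Adamts14 and Klrc1. Gzmc ran most like Klre1 too (0.90), then Adamts14, Ugcg, Spry2 and Serpinb9b. Gzmb ran most like 2900026A02Rik (0.74), then Sept11, Cst7, Sh2d2a and Nkg7. For Gzmk the closest were Cd8b1 (0.77), Gng2, Thy1, Cd8a and Sh2d1a, of which Cd8a and Cd8b1 set the CD8 T gate. Members ran closer still in part: r was 0.91 between Prf1 and Gzmc and 0.77 between Prf1 and Gzmb, above the best other gene of Gzmc and of Gzmb, and 0.30 between Prf1 and Gzmk.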

How the data were processed

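Transcript counts came from 8 droplet lanes (7 pools, 16 mice). The counts are UMI counts per gene and barcode that the authors deposited as Cell Ranger matrices, with hashtag counts beside them; Cell Ranger 3.0.0, bcl2fastq 2.20.0.422 and mm10 stand in the submitters' processing notes. No value column was left unmapped. Other steps before deposit are not given in the sources used.

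A barcode was kept if it had 200 or more genes and 10% or less of its UMIs from mitochondria. Mice were assigned per lane by a mixture model with 1 component per hashtag (posterior 0.9, at least 20 hashtag counts) or, in the lane of B2m-null isotype replicate 1, where that assigned too few barcodes, by hashtag thresholds of 2.5 SD, and hashtag doublets were removed; doublets within a mouse were not called. Gates were CD8 T (Cd8a or Cd8b1 with T lineage genes), CD4 T, regulatory T (Foxp3) and NK (Ncr1 or Klrb1c without CD3, CD4 and CD8 genes), with at most 0.3% myeloid UMIs. Counts were summed per mouse and gate (at least 20 cells) and tested over all genes that passed filterByExpr with edgeR 4.0.16 (TMM, quasi-likelihood test, Benjamini-Hochberg adjustment, called at 0.05), each gate alone over all groups; gates were compared with the mouse as a block. SE is the absolute log2 change over the root of F. Counting intervals are 95% and exact (binomial, conditional on both counts) and cover counting error only. Alternatives were RLE scaling, no filter, DESeq2 1.42.0, limma 3.58.1 with the pool as a block, counts per pool, a stricter gate, 10 cells, thinning, leaving out each pool, and a cap of 10 UMIs per cell (after seeing the data). For control tumours under anti-CD40, with 1 pool, each mouse was left out instead. On simulated data with 100 genes each changed 2-fold and 4-fold under anti-CD40 in B2m-null tumours, 46% and 81% were recovered in CD8 T cells over 10673 genes and 31% and 78% in NK cells over 4774. The members and lists were chosen with earlier results of these data known. All 10 members are named in every gate; a list gene is named where it is called and among the 3 largest changes of its list, and like genes are the 5 highest correlations.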

Additional observations from a re-analysis of the deposited data

Results flagged for a closer look

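Over 39 sets of 4 or 5 mice of 1 group, each with a UMI of the gene, 6 held a mouse whose value lay far from the others of its group by Dixon's criterion. For normally spread values chance gives about 1 such set in 20, a spread that these levels need not have. All 6 were control tumours under isotype. In CD8 T cells Gzmg was at 103.6 CPM in replicate 2 mouse 1 against 2.39 to 10.9 CPM in the other 4 mice, Gzmk at 92.8 CPM in replicate 2 mouse 2 against 35.7 to 49.5 CPM, and Gzmm at 7.18 CPM in replicate 1 mouse 2 against 0.566 to 2.01 CPM. In NK cells Gzmk was lowest in replicate 1 mouse 1, at 3.03 CPM, and Prf1 highest in replicate 2 mouse 2, at 645.1 CPM against 368.5 to 422 CPM. In regulatory T cells Gzmb was at 695 CPM in replicate 1 mouse 2 against 295 to 388 CPM.

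The effect of anti-CD40 on Prf1 in CD8 T cells differed between the tumours, by 1.76 on the log2 scale: it was -1.25 in control and 0.50 in B2m-null tumours. That call was lost with the pool as a random block (adjusted p = 0.0542), with counts per pool (0.398) and without B2m-null isotype replicate 1 (0.0547), control isotype replicate 1 (0.0587) or control CD40 mouse 2 (0.140). The isotype mice shared by this and the other comparisons differed already, as reported above.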

How the results depend on the processing

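Of 106 gene and gate results called, members and list genes together, 30 kept their call under every alternative that could be run; 331 single values lost it, leaving out those to which DESeq2 gave no adjusted p. Over the 40 member and gate combinations, the 11 calls under anti-CD40 in control tumours became 21 with no filter on low counts, 7 with DESeq2, 2 with counts per pool, and 4 to 13 with single pools or mice left out. The 11 in B2m-null tumours, 2 of them from the single regulatory T mouse, became 22 with no filter, 5 with the pool as a random block in limma-voom, 4 with counts per pool, 4 in the stricter gate, 7 with cells thinned to 1000 UMIs, and 4 to 11 with pools or mice left out. The 5 between tumours under isotype became 13 with no filter, 1 with limma-voom, 2 with counts per pool, 2 with counts capped, 3 with thinning, and 1 to 7 with pools or mice left out. The 5 between tumours under anti-CD40 became 12 with no filter, 2 with DESeq2 (2 of the 5 had no adjusted p), 2 with limma-voom, 1 with counts per pool, 0 with counts capped, 2 with thinning, and 0 to 5 with pools or mice left out. The 1 call for the difference of the changes became 12 with no filter, 3 with DESeq2, 0 with limma-voom, 0 with counts per pool, 2 in the stricter gate, 2 with at least 10 cells, 2 with thinning, and 0 to 2 with pools or mice left out. The 36 calls between gates, those with a fixed direction included, became 19 with thinning, and 30 to 36 with pools or mice left out. The Gzmb share of CD8 T cells in control tumours under isotype, 46.76% at 1000 UMIs, was 63.49% at 2000 UMIs and 66.75% unthinned. No filter tests more genes, and thinning, pool sums and left-out pools hold fewer counts or samples; the causes were not tested further.

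Sign changed for 3 values: Gzmc in CD4 T cells under anti-CD40 in B2m-null tumours was -0.14 with counts per pool (adjusted p = 0.981), Gzmc in NK cells under anti-CD40 in control tumours was -2.83 in the stricter gate (0.0335), and Gzma in regulatory T cells between tumours under isotype was -6.96 in the stricter gate (5.13e-05), a fitted value that is no bound, since the B2m-null arm there was 1 mouse with no Gzma UMI. With the replicate number as a block (replicate block, 3 groups), calls were 11 under anti-CD40 in B2m-null tumours, against 10 without the block, and 5 against 5 between tumours under isotype. Same-numbered pools shared deviations with r of -0.16 to 0.31, and no label says that a number marks a shared day. The regulatory T fit without B2m-null isotype replicate 2 could not be run.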
